A study of Homo sapiens with 6 samples.

Results

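Genes named as antisense to another gene were followed in a bladder cancer cell line in which TRAIP was knocked down. Members were the genes whose symbol ends in -AS and a number and whose mean raw count over all 6 libraries was at least 50. Of 870 rows with such a name, 337 met the minimum, out of 33542 genes in the table. The minimum used the level over both groups and not the contrast between them. Each member was paired with the sense gene whose name stands before -AS, which was found for 328 members and gave 321 different sense genes. The cells were T24, an established human urinary bladder carcinoma line, grown as 1 line in all groups. In the siNC group, 3 libraries came from T24 cells transfected with a control small interfering RNA. In the siTRAIP group, 3 libraries came from T24 cells transfected with a small interfering RNA against TRAIP, which encodes a RING-type E3 ubiquitin ligase. All cells received a small interfering RNA by lipid transfection, carried no other labelled alteration, and were compared at a time that the labels do not give. Whether libraries within a group were separate cultures is not labelled, and the p-values then measure only the spread between these libraries, which may be technical.

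An antisense gene lies on the DNA strand opposite to another gene, and its transcript can be complementary to that gene's transcript where exons overlap. Some antisense transcripts start from the same promoter region as the sense gene and run away from it, some start inside it, and others run into its end. Many are long noncoding RNAs that are kept at low level by nuclear decay, and a few are known to act on their neighbour through chromatin, splicing or paired RNA.

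TRAIP itself stood at 26.6, 28.3 and 28.4 CPM with siNC and 12.5, 14.7 and 11.6 CPM with siTRAIP, a fold of 0.465 (log2 fold change -1.11, SE 0.07, edgeR adjusted p = 6.74e-10). CPM are counts that edgeR scaled to a common library size with its TMM factor, and the test is edgeR's 2-sided quasi-likelihood F-test with Benjamini-Hochberg adjustment over 18685 genes, at a threshold of 0.05. Total counts per library ran from 39111793 to 70439496. Of 8 markers of T24 or epithelial cells, 6 were at 1 RPKM or more (RPKM are counts scaled for exon length and library total). The summed RPKM of these 8 markers ran from 896 to 920 in siNC and from 794 to 870.0 in siTRAIP, and of these EPCAM and CDH1 were below 1 RPKM. None of 4 endothelial, 6 fibroblast and 6 urothelial markers reached 1 RPKM. Of 6 leukocyte markers only the lysosomal protein gene CD68 did, at 17.8 RPKM, and PTPRC, which marks all leukocytes, was at 0.0027. The summed leukocyte markers ran from 15.8 to 16.9 RPKM in siNC and from 17.4 to 20.5 RPKM in siTRAIP. CD68 itself rose (log2 fold change 0.31, edgeR adjusted p = 9.17e-04). The part of these shifts in the results was not tested.

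The library kit keeps strand, but the strand setting of the read counting is not given in the sources used here. Where opposite-strand genes have identical exons, their mean counts were equal. These were 16.8 for MIR548AA1 and hsa-mir-548d-1, 1.67 for MIR3158-1 and hsa-mir-3158-1 and 0.333 for MIR4773-1 and hsa-mir-4773-1. In these low-count pairs the counts do not tell the strands apart. Members' counts may therefore hold reads of an overlapping opposite-strand gene, to an extent that is not known. In RPKM, genes wholly covered by opposite-strand exons lay above or below the covering gene. Of 526 such genes, 193 had a mean count of at least 50. Where a single covering gene was at 20 RPKM or more (50 genes), the covered gene was above it in RPKM in 12, and the median ratio of covered to covering RPKM was 0.279. RP5-940J5.9, within the exons of the glycolytic gene GAPDH, had a mean count of 22699 against 71049 for GAPDH. The gene within 8.09% of the exonic bases of TPT1 had 39286.5 against 44931.5 for TPT1. Nearly equal counts were also seen at a higher level, with 2068 for the gene within 91.9% of the exonic bases of MGAT2 and 2089 for MGAT2. For the gene within 54.9% of those of FADD, the count was 587 against 2929. Whether reads of both strands were counted for these genes was not tested. At the other end AP000769.7, within 4.52% of the exonic bases of the noncoding RNA gene MALAT1, had 0.333 against 37722. RP13-1032I1.11, within 8.36% of those of the endosomal sorting gene HGS, had 6.5 against 11617. As reads need not cover a gene's exons evenly, neither the RPKM ratios nor these low counts show whether strands were kept apart. The part of exon overlap in the members' values was not tested. Among the 337 members, the median share of exonic bases that also lay in exons of an opposite-strand gene was 15.2%. That share was 0 for 40 members and over 50% for 35. The share of exonic bases that overlap the sense gene is therefore given for the members described.

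Promoter windows were read to show the ground that members and sense genes share. STARD4-AS1 and HIF1A-AS1 are shown with their sense genes because in both pairs the genes start close to each other and both fell. SLC25A30-AS1 is shown because its window holds the sterol element TCACNCCAC, and NOP14-AS1 and HMMR-AS1 because they rose and hold a CCAAT box. Each window is the RefSeq sequence (GRCh38.p14) from 250 bases before to 50 bases after an annotated start, 5′ to 3′ on the gene's own strand. Capitals mark CCAAT or its complement ATTGG, or the sterol element, and a window without capitals holds neither.
STARD4-AS1 (chr5:111511976-111512275, plus strand): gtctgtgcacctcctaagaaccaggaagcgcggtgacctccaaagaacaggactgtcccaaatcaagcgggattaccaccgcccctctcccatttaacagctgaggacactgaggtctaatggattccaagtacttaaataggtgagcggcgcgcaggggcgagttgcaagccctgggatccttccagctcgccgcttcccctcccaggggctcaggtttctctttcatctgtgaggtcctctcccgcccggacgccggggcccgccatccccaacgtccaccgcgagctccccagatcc
STARD4 (chr5:111512486-111512785, minus strand): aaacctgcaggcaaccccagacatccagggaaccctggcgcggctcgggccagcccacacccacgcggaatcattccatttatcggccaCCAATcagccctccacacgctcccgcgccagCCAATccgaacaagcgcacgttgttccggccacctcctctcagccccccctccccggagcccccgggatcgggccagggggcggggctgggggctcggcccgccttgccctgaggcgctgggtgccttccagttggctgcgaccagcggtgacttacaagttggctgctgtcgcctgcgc
HIF1A-AS1 (chr14:61695774-61696073, minus strand): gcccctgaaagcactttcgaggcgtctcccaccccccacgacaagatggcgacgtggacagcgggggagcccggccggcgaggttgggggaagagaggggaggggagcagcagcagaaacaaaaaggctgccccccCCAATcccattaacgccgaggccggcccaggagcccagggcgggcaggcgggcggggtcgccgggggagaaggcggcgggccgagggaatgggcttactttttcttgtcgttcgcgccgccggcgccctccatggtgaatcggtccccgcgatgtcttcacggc
HIF1A (chr14:61695263-61695562, plus strand): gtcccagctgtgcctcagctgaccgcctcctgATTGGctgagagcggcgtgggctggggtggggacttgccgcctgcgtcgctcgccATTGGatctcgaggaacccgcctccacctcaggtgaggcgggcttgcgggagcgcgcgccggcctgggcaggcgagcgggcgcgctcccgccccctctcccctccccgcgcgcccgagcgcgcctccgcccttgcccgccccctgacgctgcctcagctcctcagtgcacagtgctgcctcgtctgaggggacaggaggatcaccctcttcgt
SLC25A30-AS1 (chr13:45417912-45418211, plus strand): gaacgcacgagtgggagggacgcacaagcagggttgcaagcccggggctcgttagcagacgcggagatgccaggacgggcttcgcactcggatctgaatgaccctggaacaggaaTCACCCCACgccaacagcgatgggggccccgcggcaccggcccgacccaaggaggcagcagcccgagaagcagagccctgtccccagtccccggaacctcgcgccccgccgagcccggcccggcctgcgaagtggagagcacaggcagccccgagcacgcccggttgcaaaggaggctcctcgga
NOP14-AS1 (chr4:2935296-2935595, plus strand): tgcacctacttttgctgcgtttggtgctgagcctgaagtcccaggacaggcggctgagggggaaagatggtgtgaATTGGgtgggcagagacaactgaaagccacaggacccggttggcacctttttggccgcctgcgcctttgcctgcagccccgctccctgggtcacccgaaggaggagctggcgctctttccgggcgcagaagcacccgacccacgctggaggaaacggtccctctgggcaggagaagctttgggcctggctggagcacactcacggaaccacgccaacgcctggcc
HMMR-AS1 (chr5:163494009-163494308, minus strand): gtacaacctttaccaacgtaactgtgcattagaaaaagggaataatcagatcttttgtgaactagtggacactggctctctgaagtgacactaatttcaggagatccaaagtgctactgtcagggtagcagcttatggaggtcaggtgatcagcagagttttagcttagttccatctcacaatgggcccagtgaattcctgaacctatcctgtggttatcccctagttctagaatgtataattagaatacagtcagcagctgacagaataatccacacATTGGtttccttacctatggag
The STARD4-AS1 and STARD4 windows do not overlap, and the STARD4 window holds 2 CCAAT boxes and the STARD4-AS1 window none. HIF1A has a further annotated start downstream, whose window is not shown. The HIF1A-AS1 window lies past the first HIF1A start, inside the HIF1A gene, and both windows hold CCAAT. NOP14-AS1 and HMMR-AS1 differ in composition, at 63.7% and 42.3% GC.

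The share of antisense-named genes called with TRAIP knockdown was near that of all genes and below that of genes with the same count minimum. Of 337 members, all of which were tested, 37 (10.98%) passed the threshold, beside 12.8% of all genes tested and 16.1% of the genes tested with a mean count of at least 50. Of these, 13 rose (3.86%, beside 7.47% of all genes) and 24 fell (7.12%, beside 5.34%). The direction split depends on scaling: with total counts and no TMM factor, 7 rose and 36 fell, and with limma on log2(RPKM + 0.1), 5 rose and 24 fell. Leaving out siNC replicate 1, 2 or 3 left 21, 21 and 17 calls, and leaving out siTRAIP replicate 1, 2 or 3 left 26, 25 and 28. Of the 37 calls, 14 passed with any 1 library left out, and none changed sign under an alternative. The members' log2 fold changes ran from -0.78 to 0.75 with a median of -0.01, beside -0.0017 over all genes, and no member changed 2-fold. The median absolute log2 fold change was 0.112 in members and 0.125 over all genes. Among the 37 called, 30 were under 0.5 in absolute log2 fold change. The siNC and siTRAIP libraries did not overlap for 75 members (22.3%), beside 29.1% of all genes tested, and for 35 of the 37 called. In bulk libraries, a transcript in fewer cells and less of it per cell cannot be told apart.

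The largest fall was in STARD4-AS1, which starts 364 bases from STARD4, a gene for a protein that carries cholesterol between membranes. STARD4-AS1 (chromosome 5, 111512226 to 111739726, plus strand, GRCh38) stood at 6.89, 6.59 and 6.73 CPM in siNC replicates 1 to 3 and 4.48, 3.87 and 3.54 CPM in siTRAIP replicates 1 to 3. All siTRAIP libraries lay below all siNC libraries, and the fold was 0.582 (log2 fold change -0.78, SE 0.11, edgeR adjusted p = 1.68e-05). STARD4 was at 25.3, 27.8 and 26.02 CPM with siNC and 14.04, 14.7 and 15.7 CPM with siTRAIP. Its groups did not overlap either, with a change of -0.82 on the log2 scale (SE 0.06, edgeR adjusted p = 4.56e-09), and the antisense change minus the sense change was 0.04 (SE 0.13, edgeR adjusted p = 0.942). The exons of STARD4-AS1 overlap those of STARD4 in 2.20% of their bases. In all, 17.9% lie in opposite-strand exons, the largest part in NREP, whose change of -0.26 on the log2 scale (SE 0.13, edgeR adjusted p = 0.218) did not pass.

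IDI2-AS1 runs through the neighbouring isopentenyl diphosphate isomerase genes IDI2 and IDI1, the second of which is an enzyme of cholesterol and isoprenoid synthesis. IDI2-AS1 (chromosome 10, 1022666 to 1044201, plus strand) was at 12.1, 12.1 and 10.99 CPM with siNC and 8.06, 7.80 and 7.85 CPM with siTRAIP, with every siTRAIP library lower (log2 fold change -0.57, SE 0.08, edgeR adjusted p = 2.25e-05). Its named partner IDI2 was low, at 1.10, 1.07 and 1.11 CPM with siNC and 0.790, 1.03 and 1.94 CPM with siTRAIP. Here siTRAIP replicates 1 and 2 lay below all siNC libraries and siTRAIP replicate 3 above them. The log2 fold change of IDI2 was 0.27 (SE 0.26, edgeR adjusted p = 0.593), and -0.25 without siTRAIP replicate 3. Of the exonic bases of IDI2-AS1, 57.7% lie in opposite-strand exons, the largest part in IDI1, and 7.29% in those of IDI2. IDI1 fell from 32.5, 31.1 and 30.6 CPM with siNC to 18.6, 20.2 and 20.9 CPM with siTRAIP (log2 fold change -0.65, SE 0.06, edgeR adjusted p = 4.74e-08), and its groups did not overlap.

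HIF1A-AS1 starts 310 bases from HIF1A, which encodes the oxygen-regulated subunit of hypoxia-inducible factor 1. HIF1A-AS1 (chromosome 14, 61681041 to 61695823, minus strand) was at 7.55, 7.60 and 7.81 CPM with siNC and 5.43, 4.62 and 5.22 CPM with siTRAIP. The siTRAIP libraries were all lower, at a fold of 0.665 (log2 fold change -0.59, SE 0.10, edgeR adjusted p = 1.33e-04). HIF1A was at 168, 171 and 172 CPM with siNC and 122, 118 and 123 CPM with siTRAIP, also without overlap (log2 fold change -0.49, SE 0.04, edgeR adjusted p = 1.13e-08). The difference of these changes was -0.10 (SE 0.06, edgeR adjusted p = 0.530), with 17.9% of the HIF1A-AS1 exonic bases inside HIF1A exons.

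SLC25A30-AS1 starts 293 bases from SLC25A30, a mitochondrial carrier gene. It was at 5.11, 5.11 and 4.86 CPM with siNC and 3.34, 4.0 and 3.18 CPM with siTRAIP, and its groups did not overlap (log2 fold change -0.53, SE 0.12, edgeR adjusted p = 0.00309). SLC25A30 was at 24.1, 21.8 and 22.98 CPM with siNC and 16.4, 15.7 and 16.5 CPM with siTRAIP (log2 fold change -0.50, SE 0.06, edgeR adjusted p = 5.91e-06). The change of the antisense gene minus that of the sense gene was -0.03 (SE 0.12, edgeR adjusted p = 0.953), with 22.3% of exonic bases shared.

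Another 4 of the leading falls lay inside their sense gene or ran into its end. UBE2Q1-AS1 is the shorter partner of UBE2Q1, a gene for a ubiquitin-conjugating enzyme, and was at 47.4, 50.4 and 49.5 CPM with siNC and 38.7, 35.98 and 42.9 CPM with siTRAIP. Both genes fell without overlap of groups, UBE2Q1-AS1 by 0.32 and UBE2Q1 by 0.41 on the log2 scale (edgeR adjusted p = 3.68e-04 and 1.40e-06). RGMB-AS1 lies in RGMB, a co-receptor gene for bone morphogenetic proteins, and was at 14.8, 13.9 and 14.3 CPM with siNC and 11.3, 11.9 and 11.8 CPM with siTRAIP. The siTRAIP libraries were lower for both, with falls of 0.30 for RGMB-AS1 and 0.41 for RGMB on the log2 scale (edgeR adjusted p = 0.00554 and 8.14e-07). PTOV1-AS2 was at 5.06, 4.73 and 5.01 CPM with siNC and 3.24, 3.60 and 3.77 CPM with siTRAIP, and 42.2% of its exonic bases lie in PTOV1 exons. PTOV1-AS2 fell by 0.47 and PTOV1 by 0.31 on the log2 scale (edgeR adjusted p = 0.00563 and 0.0216), both without overlap. MAP3K14-AS1 runs into the end of MAP3K14, the kinase gene of noncanonical NF-kappa-B signalling, and was at 5.41, 5.80 and 6.20 CPM with siNC and 4.53, 4.59 and 4.06 CPM with siTRAIP. It fell by 0.41 and MAP3K14 by 0.52 on the log2 scale (edgeR adjusted p = 0.0114 and 4.36e-06), and its call was lost without siNC replicate 3 (edgeR adjusted p = 0.0662). The shared exonic bases were 11.8% of UBE2Q1-AS1, 15.5% of RGMB-AS1 and 18.8% of MAP3K14-AS1.

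In 2 of the leading falls the sense gene was close to silent. APCDD1L-AS1 starts 248 bases from APCDD1L and runs away from it, and shares no exonic base with any opposite-strand gene. APCDD1L-AS1 was at 38.05, 37.9 and 41.1 CPM with siNC and 32.3, 32.9 and 32.7 CPM with siTRAIP. It fell in every siTRAIP library (log2 fold change -0.26, SE 0.05, edgeR adjusted p = 0.00123), while APCDD1L had a mean RPKM of 0.0437 and a log2 fold change of 0.24 (SE 0.56) that did not pass (edgeR adjusted p = 0.848). FGD5-AS1 was at 81.1, 80.6 and 78.1 CPM with siNC and 71.6, 68.9 and 69.8 CPM with siTRAIP and also fell without overlap (log2 fold change -0.19, SE 0.04, edgeR adjusted p = 0.00423). FGD5, an exchange factor gene for the small GTPase CDC42, had a mean RPKM of 0.00211 and was too low to test. FGD5-AS1 shares 3.43% of its exonic bases with FGD5.

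Among the rises, NOP14-AS1 had the smallest adjusted p. It runs into the end of NOP14, a gene for a nucleolar protein of small ribosomal subunit assembly. NOP14-AS1 (chromosome 4, 2934899 to 2961738, plus strand) was at 136, 135 and 143 CPM in siNC replicates 1 to 3 and 174, 171 and 176 CPM in siTRAIP replicates 1 to 3. Each siTRAIP library exceeded each siNC library, at a fold of 1.26 (log2 fold change 0.33, SE 0.04, edgeR adjusted p = 5.65e-06). NOP14 was at 471, 476 and 489 CPM with siNC and 549, 533 and 529 CPM with siTRAIP and also rose (log2 fold change 0.17, SE 0.04, edgeR adjusted p = 0.00729). The difference between these changes was 0.17 (SE 0.04, edgeR adjusted p = 0.130), with 8.41% of exonic bases shared.

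RRM1-AS1 had the highest level per length of all members and lies inside RRM1, which encodes the large subunit of ribonucleotide reductase, the enzyme that makes deoxyribonucleotides. RRM1-AS1 (chromosome 11, 4137116 to 4138257, minus strand) was at 81.7, 86.6 and 87.7 CPM with siNC and 123, 105 and 127 CPM with siTRAIP. The siTRAIP libraries were all higher, and siTRAIP replicate 2 was the lowest of them (log2 fold change 0.47, SE 0.06, edgeR adjusted p = 8.02e-05). RRM1 was at 293, 297 and 300.0 CPM with siNC and 382, 357 and 402 CPM with siTRAIP, with siTRAIP replicate 2 again the lowest of its group (log2 fold change 0.36, SE 0.04, edgeR adjusted p = 5.27e-06). The difference of changes was 0.11 (SE 0.05, edgeR adjusted p = 0.364). RRM1-AS1 has 346 exonic bases, 18.2% of them in RRM1 exons, and a mean of 293 RPKM against 80.8 RPKM for RRM1. Reads of RRM1 may be counted for RRM1-AS1, and their part in this level was not tested.

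In 4 further pairs both genes rose, each by a small amount. HMMR-AS1 runs into the end of HMMR, a gene for a hyaluronan receptor that also binds the mitotic spindle, and was at 46.1, 46.2 and 42.3 CPM with siNC and 50.4, 51.3 and 53.3 CPM with siTRAIP. HMMR-AS1 rose by 0.20 and HMMR by 0.14 on the log2 scale (edgeR adjusted p = 0.00681 and 0.0344). The HMMR-AS1 call was lost without siNC replicate 3 (edgeR adjusted p = 0.0677) and without TMM scaling. PRC1-AS1 lies in PRC1, a gene for a microtubule bundler of the spindle midzone, and was at 105, 104 and 104 CPM with siNC and 119, 114 and 116 CPM with siTRAIP. PRC1-AS1 rose by 0.16 and PRC1 by 0.19 on the log2 scale (edgeR adjusted p = 0.0131 and 0.00207), without overlap of groups. RNF219-AS1 runs into the end of RNF219, whose product is a ubiquitin ligase at replication origins, and was at 14.2, 12.8 and 13.99 CPM with siNC and 16.99, 16.7 and 18.5 CPM with siTRAIP. It rose by 0.35 and RNF219 by 0.21 on the log2 scale (edgeR adjusted p = 0.00132 and 0.00549). OPA1-AS1 lies in OPA1, a gene for a GTPase that fuses mitochondrial inner membranes, and was at 11.02, 10.9 and 10.6 CPM with siNC and 13.4, 13.3 and 14.95 CPM with siTRAIP. It rose by 0.36 and OPA1 by 0.25 on the log2 scale (edgeR adjusted p = 0.00155 and 0.00630), with no overlap in either gene. Shared exonic bases were 11.8%, 22.6%, 16.5% and 16.9% of HMMR-AS1, PRC1-AS1, RNF219-AS1 and OPA1-AS1. The RNF219-AS1 call was also lost with limma on log2(RPKM + 0.1) or log2(RPKM + 1), with adjusted p up to 0.0824.

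The remaining leading rises were PLCG1-AS1, DLG1-AS1, SPTY2D1-AS1 and NDUFV2-AS1. PLCG1-AS1, at the start of the phospholipase C gene PLCG1, was at 86.97, 91.7 and 88.7 CPM with siNC and 98.8, 99.9 and 107 CPM with siTRAIP and rose by 0.20 on the log2 scale (edgeR adjusted p = 0.00457). PLCG1 had a log2 fold change of 0.08 (edgeR adjusted p = 0.211) and did not pass, and the PLCG1-AS1 call was lost with limma on log2(RPKM + 0.1) or log2(RPKM + 1), with adjusted p up to 0.105. DLG1-AS1, at the start of the cell polarity scaffold gene DLG1, was at 5.20, 4.79 and 4.98 CPM with siNC and 6.32, 6.11 and 6.73 CPM with siTRAIP, with no overlap. DLG1-AS1 rose by 0.36 and DLG1 by 0.14 on the log2 scale (edgeR adjusted p = 0.0152 and 0.0306). SPTY2D1-AS1, which runs into the end of the histone chaperone gene SPTY2D1, was at 6.03, 7.28 and 6.95 CPM with siNC and 8.64, 7.76 and 8.93 CPM with siTRAIP. It rose by 0.33 and SPTY2D1 by 0.18 on the log2 scale (edgeR adjusted p = 0.0234 and 0.00371). NDUFV2-AS1 had the highest log2 fold change of any member, 0.75 (SE 0.22, edgeR adjusted p = 0.0236), at 0.732, 0.813 and 0.787 CPM with siNC and 1.11, 1.23 and 1.52 CPM with siTRAIP. Its level is low, and the siTRAIP libraries were all higher, with siTRAIP replicate 3 the highest. Exonic bases shared with the sense gene were 9.92% of PLCG1-AS1, 14.2% of DLG1-AS1, 31.4% of SPTY2D1-AS1 and none of NDUFV2-AS1. In all, opposite-strand exons hold 16.1% of PLCG1-AS1, 35.5% of SPTY2D1-AS1 and 8.94% of NDUFV2-AS1. For NDUFV2-AS1 the largest part lies in ANKRD12 (log2 fold change 0.08, edgeR adjusted p = 0.335). Among the rises, some calls were lost when any of several single libraries was left out. PRC1-AS1 did not pass without siNC replicate 1, 2 or 3 or siTRAIP replicate 1 (edgeR adjusted p up to 0.0706), and DLG1-AS1 without siNC replicate 2 or 3 or siTRAIP replicate 3 (up to 0.0773). SPTY2D1-AS1 did not pass without siNC replicate 1 or 3 or siTRAIP replicate 1 or 3 (edgeR adjusted p up to 0.167), and NDUFV2-AS1 without any siNC replicate or siTRAIP replicate 3 (up to 0.138). PRC1-AS1 and SPTY2D1-AS1 also did not pass without TMM scaling.

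**Figure D1:**
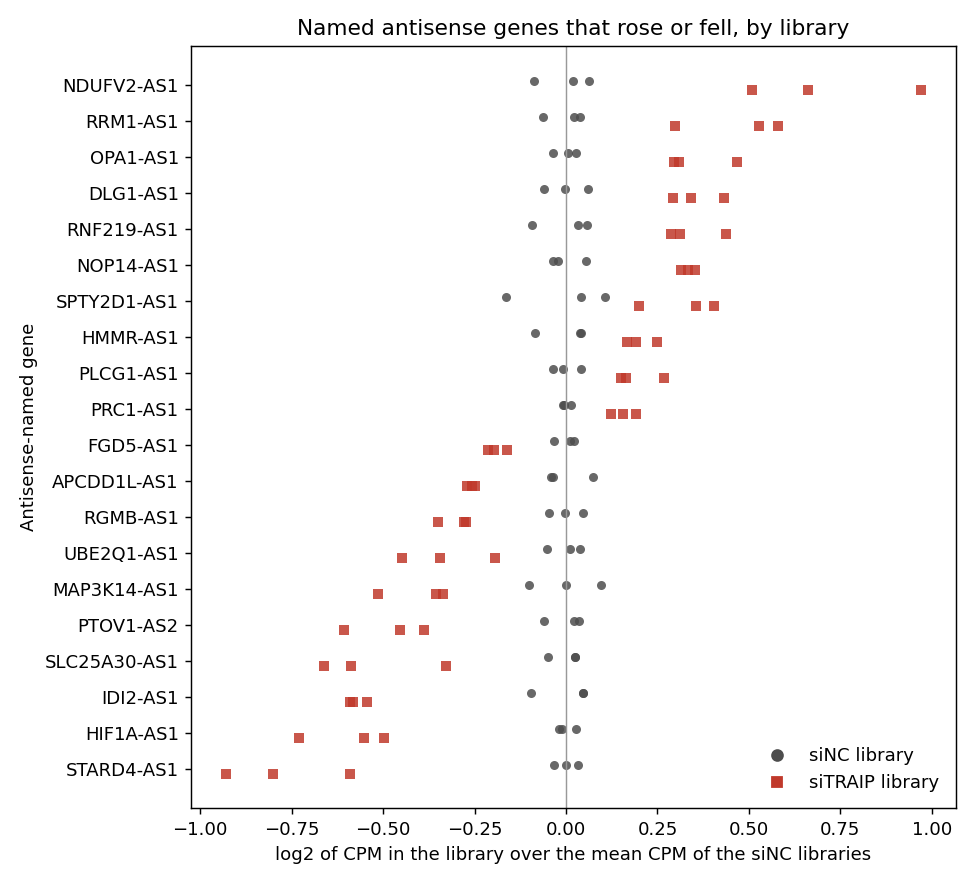
Each row is a named antisense gene that rose or fell, each circle a siNC library and each square a siTRAIP library, placed on the horizontal axis by the log2 of its CPM over the mean CPM of the siNC libraries. Squares and circles do not overlap in any of the 20 rows, and the square farthest to the left is one of STARD4-AS1.

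Over all pairs, antisense and sense changes were set side by side. In 317 pairs both genes were tested, and 26 pairs had both called: 10 in which both rose and 16 in which both fell. No pair had its genes called in opposite directions. Of the 26, 1 shared no exonic base, 17 shared up to 20%, 7 over 20 to 50% and 1 over 50%. Reads in shared exons may be counted for both genes, and their part in these calls was not tested. The same count over all opposite-strand pairs of the table is not given here. In 10 pairs the antisense gene alone was called (3 rose, 7 fell), in 45 the sense gene alone (27 rose, 18 fell), and in 236 neither. Of the 311 sense genes tested, 70 (22.5%) were called, 37 up and 33 down, and 41 were called without siNC replicate 1. The share was 12.8% over all genes tested and 16.1% over those with a mean count of at least 50. With total counts and no TMM factor, 18 sense genes rose and 55 fell, and with limma on log2(RPKM + 0.1), 9 rose and 33 fell. Across the 317 pairs the antisense and sense changes had Pearson r = 0.49 and Spearman rho = 0.44, a description across genes measured in the same 6 libraries, some with shared exons.

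**Figure D2:**
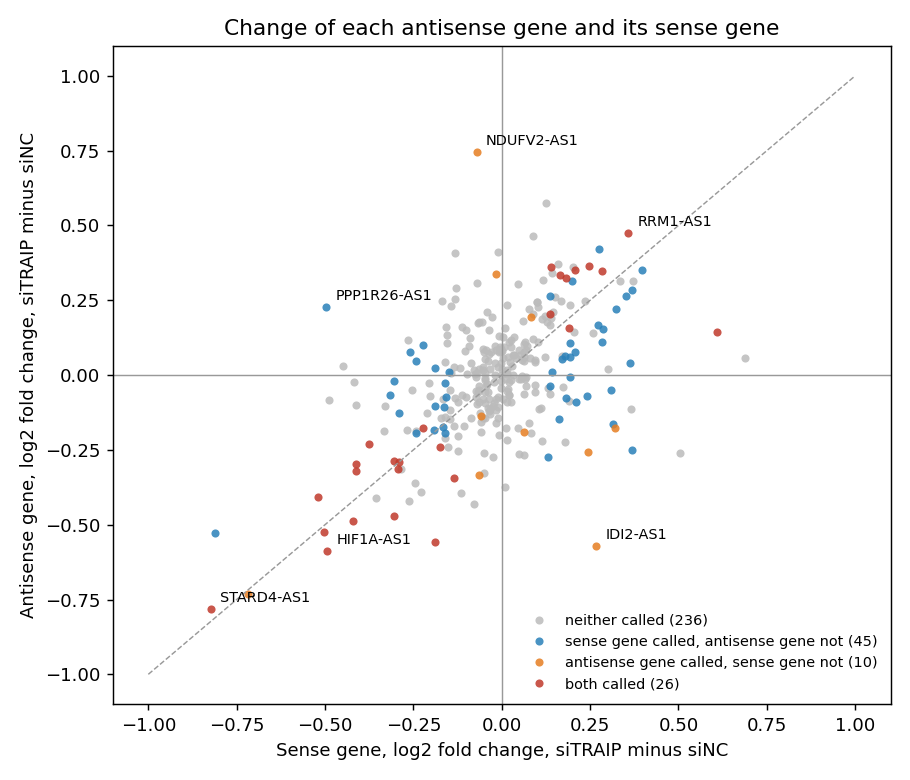
Each point is 1 of 317 pairs, with the log2 fold change of the sense gene on the horizontal axis and that of the antisense gene on the vertical axis, and colours show which gene passed an adjusted p of 0.05. The 26 pairs with both genes called lie in the lower left and upper right parts of the plot, and the dashed line marks equal changes.

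Whether the antisense change differed from the sense change was tested in 1 model of both genes' counts, with the library as a block. None of the 317 differences passed an edgeR adjusted p of 0.05, beside 28 of 5752 (0.487%) opposite-strand or named pairs in the whole table. At an unadjusted p under 0.05, 43 member pairs passed (13.6%), beside 14.9% of all such pairs. With limma on the log2 CPM ratio, 0 passed after adjustment and 39 before. A difference that did not pass does not show equal change, and the median SE of a difference was 0.11. Reads in shared exons may be counted for both genes of a pair, which would draw the tested difference towards 0.

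The pairs with the smallest p of the difference, named after their values were seen, differed in both directions. PPP1R26-AS1 had a log2 fold change of 0.23 (edgeR adjusted p = 0.260), at 3.71, 4.23 and 3.43 CPM with siNC and 4.82, 3.82 and 4.66 CPM with siTRAIP. PPP1R26, a gene for a regulatory subunit of protein phosphatase 1, fell from 70.3, 68.9 and 67.5 CPM with siNC to 49.8, 49.7 and 47.1 CPM with siTRAIP (log2 fold change -0.50, SE 0.05, edgeR adjusted p = 5.67e-08). The difference was 0.73 (SE 0.12, edgeR adjusted p = 0.0555), and the genes share no exonic base. The PPP1R26-AS1 difference passed the threshold with counts halved, with robust=FALSE and without siTRAIP replicate 2 (edgeR adjusted p = 0.0342, 0.0497 and 0.0402). NDUFV2-AS1 and NDUFV2, a complex I subunit gene at 62.1, 59.6 and 63.9 CPM with siNC and 59.99, 55.5 and 61.3 CPM with siTRAIP, also share no exonic base, with a difference of 0.83 (SE 0.15, edgeR adjusted p = 0.0636). The NDUFV2-AS1 difference passed with counts halved (edgeR adjusted p = 0.0463), as did that of LMO7-AS1 and LMO7 (0.0463). MAGI2-AS3 was at 31.6, 33.1 and 32.1 CPM with siNC and 28.6, 29.6 and 27.5 CPM with siTRAIP and fell (log2 fold change -0.18, SE 0.05, edgeR adjusted p = 0.0309). Its sense gene MAGI2, a scaffold gene, stood at 1.71, 1.66 and 1.81 CPM with siNC and 2.24, 2.13 and 2.12 CPM with siTRAIP, higher in every siTRAIP library but not called (log2 fold change 0.32, SE 0.15, edgeR adjusted p = 0.194). The difference in this pair was -0.50 (SE 0.10, edgeR adjusted p = 0.0788).

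**Figure D3:**
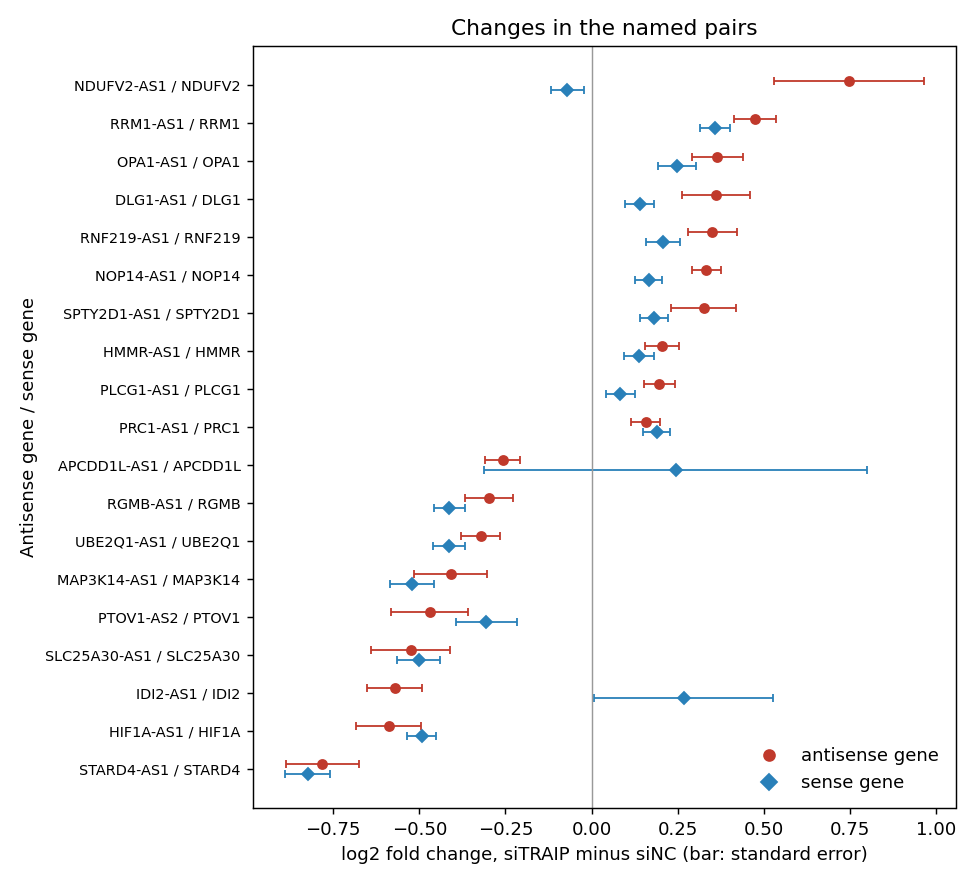
Circles give the log2 fold change of the named antisense genes that rose or fell and diamonds that of their sense genes, with bars of 1 standard error. In 16 of the 19 pairs drawn both points lie on the same side of 0, and NDUFV2-AS1, IDI2-AS1 and APCDD1L-AS1 lie opposite to sense genes that were not called.

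Pairs were grouped by position from the deposited coordinates. In 88 tested pairs the antisense gene lay inside the sense gene, in 107 the genes overlapped at their starts, in 77 at their ends, in 26 they started within 1000 bases of each other and ran apart without overlap (divergent), and in 17 the sense gene lay inside the antisense gene. Over all genes tested 12.8% were called, and 16.1% of those with a mean count of at least 50. Antisense genes inside the sense gene were called in 11 pairs (12.5%), and 10 of these had the sense gene called the same way. At overlapping starts 13 antisense genes were called (12.1%), 8 of them with the sense gene, and at overlapping ends 11 (14.3%), also 8 with the sense gene. Among divergent pairs 1 was called (3.85%), APCDD1L-AS1, and among antisense genes that contain the sense gene none was. The correlation of changes across genes was 0.68 inside the sense gene, 0.54 at starts, 0.46 at ends, 0.14 where the sense gene lay inside and -0.42 in divergent pairs. The median SE of the difference was 0.10 inside the sense gene, 0.22 where the sense gene lay inside and 0.13 in divergent pairs. Divergent pairs are few and by definition share no exonic base. The part of precision and of shared exons in these correlations was not tested.

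The same pairs were grouped by the share of the antisense gene's exonic bases that lie in exons of the sense gene. With no shared base (53 pairs), r was 0.06 and the median absolute difference of the 2 changes was 0.13. With up to 20% shared (165 pairs) r was 0.57, with over 20 to 50% (67 pairs) it was 0.58, and with over 50% (30 pairs) it was 0.81, with a median absolute difference of 0.08. Members with no shared base had lower counts, with a median of 140.5 against 264 in the group over 50%, and larger SEs of the difference (median 0.15 against 0.10). The antisense gene was called in 3, 24, 7 and 2 pairs of these 4 groups (5.66%, 14.5%, 10.4% and 6.67%). This stands beside 12.8% of all genes tested and 16.1% of those with a mean count of at least 50. Of the 40 members whose exons overlap no opposite-strand gene at all, 2 were called and both fell, APCDD1L-AS1 and PKIA-AS1. Among the 211 members with at most 20% of exonic bases in opposite-strand exons, 24 were called, 11 up and 13 down.

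**Figure D4:**
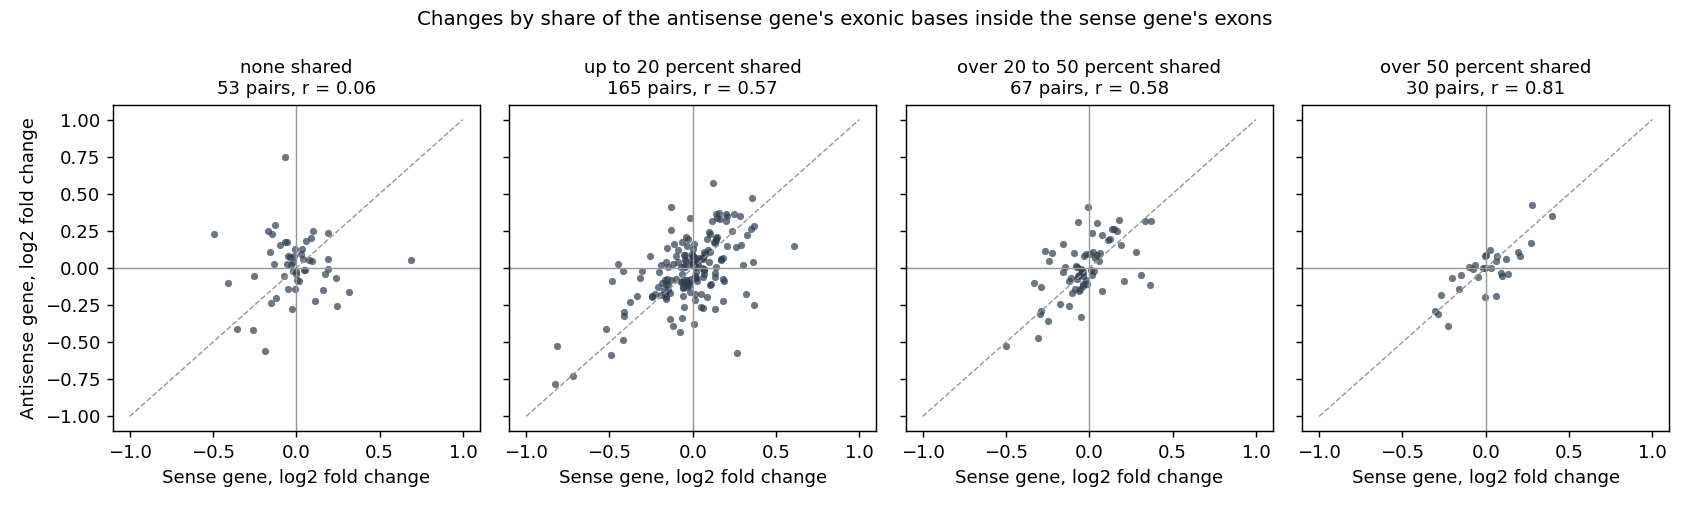
In each panel a point is a pair, placed by the log2 fold change of the sense gene (horizontal) and antisense gene (vertical), and panels run from no shared exonic base to over 50% shared. The points spread on both sides of the dashed line of equal change at the left (r = 0.06) and lie along it at the right (r = 0.81).

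Members were mostly present at low level. Their mean RPKM had a median of 2.11 and ran from 0.0840 to 293, with 92 members under 1 RPKM and 47 at 10 or more. The antisense gene exceeded its sense gene in RPKM in 103 of 317 pairs (32.5%), and the median ratio of antisense to sense RPKM was 0.512. That ratio was 0.884 for antisense genes inside the sense gene, 0.597 at overlapping ends, 0.345 at overlapping starts and 0.232 in divergent pairs. The 5 highest were all short genes inside their sense gene: RRM1-AS1, ODF2-AS1 (196 RPKM), NUCB1-AS1 (193 RPKM), ARMCX3-AS1 (169.5 RPKM) and UBE2Q1-AS1 (102 RPKM). Each of these was 3.51 to 4.57 times its sense gene in RPKM, on exonic lengths of 346 to 490 bases. In ARMCX3-AS1, 93.9% of these bases lie in exons of ARMCX3. The part of short length and of reads of the sense gene in these 5 levels was not tested.

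Of these 5, RRM1-AS1 rose and UBE2Q1-AS1 fell, as above, and the other 3 did not pass the threshold. ODF2-AS1 was at 80.5, 78.96 and 80.7 CPM with siNC and 81.5, 82.4 and 73.7 CPM with siTRAIP, beside the centrosome protein gene ODF2, and siTRAIP replicate 3 was the lowest library (log2 fold change -0.02, edgeR adjusted p = 0.874). NUCB1-AS1 was at 84.7, 82.99 and 74.5 CPM with siNC and 86.4, 89.9 and 83.99 CPM with siTRAIP, with overlapping groups (log2 fold change 0.10, edgeR adjusted p = 0.197). ARMCX3-AS1 was at 83.03, 83.4 and 82.8 CPM with siNC and 84.5, 83.1 and 81.8 CPM with siTRAIP, at 0.00 on the log2 scale (SE 0.04, edgeR adjusted p = 0.996).

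**Figure D5:**
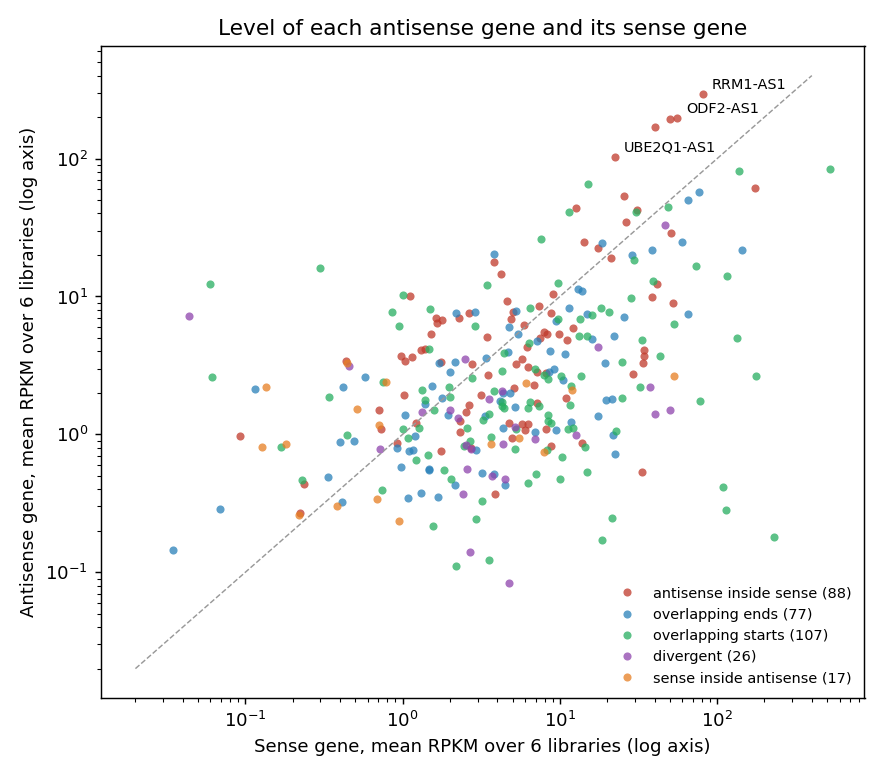
Each point is a pair, with the mean RPKM over 6 libraries of the sense gene on the horizontal and of the antisense gene on the vertical log axis, coloured by position, and 2 pairs without a single position left out. RRM1-AS1 is the highest point at 293 RPKM, and the dashed line marks equal levels.

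The minimum of 50 counts set the lower edge of the set. Just inside it were BAALC-AS1 (mean count 50.3), ZEB1-AS1 (50.5) and CLIP1-AS1 (50.8). Rows just outside it included JAKMIP2-AS1 (49.8) and GSN-AS1 (49.5). Of the 533 rows under the minimum, 192 still passed edgeR's expression filter. With a minimum of 20 counts the set was larger, and 38 of its members were called. Over all genes tested 12.8% were called.

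A list of antisense RNAs that have been studied in cancer had 45 members in the set, of which 1 rose and 4 fell, beside 7.47% up and 5.34% down over all genes tested. HIF1A-AS1 and FGD5-AS1, above, and MAGI2-AS3 and TOPORS-AS1 were the falls, and GAS6-AS1 the rise. The list's median log2 fold change was 0.02. GAS6-AS1 was at 6.36, 7.04 and 6.68 CPM with siNC and 7.01, 8.68 and 9.44 CPM with siTRAIP, and its groups overlapped, since siTRAIP replicate 1 lay below siNC replicate 2 (log2 fold change 0.34, SE 0.10, edgeR adjusted p = 0.0285). GAS6, the gene for a ligand of the TAM receptor kinases, was at 41.2, 40.5 and 43.6 CPM with siNC and 38.8, 45.5 and 39.7 CPM with siTRAIP, with a log2 fold change of -0.02 (edgeR adjusted p = 0.914). Leaving out any library other than siTRAIP replicate 1 ended the GAS6-AS1 call (edgeR adjusted p up to 0.154), and so did total counts without TMM and limma on log2(RPKM + 0.1) or log2(RPKM + 1) (adjusted p up to 0.281). TOPORS-AS1 was at 4.90, 4.89 and 4.91 CPM with siNC and 3.95, 3.47 and 4.18 CPM with siTRAIP (log2 fold change -0.34, SE 0.11, edgeR adjusted p = 0.0473), and it did not pass without any one library other than siTRAIP replicate 3 (up to 0.173), nor with DESeq2, with no filter or with the replicate block (up to 0.0867). RefSeq lists it as the protein-coding gene SMIM27, and 34.3% of its exonic bases lie in opposite-strand exons, the largest part in DFFBP1 (log2 fold change -0.44, edgeR adjusted p = 0.0508). The MAGI2-AS3 call was lost without any one library other than siTRAIP replicate 2 (edgeR adjusted p up to 0.135), and with limma on either RPKM scale (up to 0.0573).

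The 5 list members with the most counts that were not called cover several much-studied names. TMPO-AS1 was at 154, 149 and 159 CPM with siNC and 138, 147 and 149 CPM with siTRAIP and did not pass, although its groups did not overlap, with siNC replicate 2 just above siTRAIP replicate 3 (log2 fold change -0.09, SE 0.04, edgeR adjusted p = 0.198). TMPO, the gene for the nuclear envelope protein thymopoietin, rose from 345, 404 and 419 CPM with siNC to 446, 439.6 and 465 CPM with siTRAIP (log2 fold change 0.21, SE 0.06, edgeR adjusted p = 0.0289), and the difference in this pair was -0.31 (SE 0.08, edgeR adjusted p = 0.121). AFAP1-AS1 was at 74.4, 75.2 and 77.5 CPM with siNC and 81.3, 78.6 and 74.3 CPM with siTRAIP (log2 fold change 0.04, edgeR adjusted p = 0.619). NIFK-AS1 was at 62.3, 63.9 and 60.6 CPM with siNC and 62.3, 64.4 and 67.4 CPM with siTRAIP (log2 fold change 0.06, edgeR adjusted p = 0.505). Both had overlapping groups, and both turned slightly negative without TMM scaling. PSMA3-AS1 was at 50.2, 51.03 and 52.5 CPM with siNC and 50.5, 53.7 and 57.7 CPM with siTRAIP (log2 fold change 0.08, edgeR adjusted p = 0.380), and RUSC1-AS1 at 35.95, 35.4 and 35.2 CPM with siNC and 37.2, 38.9 and 33.9 CPM with siTRAIP (log2 fold change 0.04, edgeR adjusted p = 0.703). Their groups overlapped as well.

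The 14 other called members changed within the same range. THAP9-AS1 and RASSF8-AS1 rose together with THAP9, a gene derived from a DNA transposase, and RASSF8. THAP9-AS1 was at 65.96, 68.96 and 67.4 CPM with siNC and 72.9, 73.96 and 76.6 CPM with siTRAIP and rose by 0.14 on the log2 scale (edgeR adjusted p = 0.0315). It had a mean of 16.1 RPKM, 53.8 times that of THAP9, and the difference in this pair was -0.45 (SE 0.13, edgeR adjusted p = 0.161). Neither the THAP9-AS1 nor the RASSF8-AS1 call held without TMM scaling. Of the other 12, all of which fell, ERICH6-AS1 had the lowest log2 fold change, -0.73 (SE 0.19, edgeR adjusted p = 0.0132), at 1.48, 2.22 and 2.03 CPM with siNC and 1.29, 1.21 and 1.001 CPM with siTRAIP. PKIA-AS1 was at 2.34, 1.70 and 2.46 CPM with siNC and 1.40, 1.34 and 1.64 CPM with siTRAIP and fell by 0.56 on the log2 scale (edgeR adjusted p = 0.0382). SLC7A11-AS1 was at 17.8, 16.5 and 15.3 CPM with siNC and 14.01, 13.3 and 14.9 CPM with siTRAIP, and its sense gene SLC7A11, which encodes the cystine transporter, also fell (log2 fold changes -0.23 and -0.38, edgeR adjusted p = 0.0407 and 2.86e-06). SMARCA5-AS1 was at 30.7, 29.4 and 27.1 CPM with siNC and 27.3, 25.3 and 24.1 CPM with siTRAIP, and siNC replicate 3 lay below siTRAIP replicate 1. It fell by 0.19 on the log2 scale (edgeR adjusted p = 0.0461), while SMARCA5, an ISWI chromatin remodeller gene that overlaps 66.7% of its exonic bases, had 0.06 (edgeR adjusted p = 0.463). The rest were SPG20-AS1, ZSWIM8-AS1, MAPKAPK5-AS1, EAF1-AS1, LRRC75A-AS1, PAX8-AS1, DENND6A-AS1 and GTF3C2-AS1, with log2 fold changes from -0.49 (DENND6A-AS1) to -0.14 (LRRC75A-AS1). Each of these 14 calls was lost when a single library was left out, for 2 to 6 of the libraries, with edgeR adjusted p up to 0.235.

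Among 9 members with no sense row in the table, 6 belong to the HOX clusters, the gene arrays that set position along the body axis: HOXA-AS2, HOXA-AS3, HOXB-AS1, HOXB-AS3, HOXC-AS2 and HOXD-AS2. The others were RPARP-AS1, MLK7-AS1 and MFI2-AS1. None of the 9, a small set, was called, beside 12.8% of all genes tested and 16.1% of those with a mean count of at least 50. HOXB-AS1 was at 12.5, 11.4 and 11.4 CPM with siNC and 11.1, 10.4 and 11.5 CPM with siTRAIP (edgeR adjusted p = 0.499) and HOXB-AS3 at 11.4, 10.6 and 10.7 CPM with siNC and 10.4, 10.9 and 10.8 CPM with siTRAIP (edgeR adjusted p = 0.894), both with log2 fold changes (-0.09 and -0.02) smaller than 0.2 in size.

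Transcripts named in other ways for a neighbouring gene were taken with the same minimum. Of 7 names ending in -AS without a number, BDNF-AS fell (log2 fold change -0.26, SE 0.07, edgeR adjusted p = 0.0193) and 6 did not pass. None of 5 intronic (-IT) and none of 2 overlapping (-OT) names passed, and the lowest edgeR adjusted p was 0.0762, in KBTBD11-OT1. These small sets stand beside 12.8% of all genes tested and 16.1% of those with a mean count of at least 50. No row had a name ending in -DT, the current suffix for divergent transcripts, but 24 members carry such a name in RefSeq.

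Genes that degrade or bind such transcripts were read beside the 12.8% of all genes tested that were called. Of 31 nuclear RNA decay genes tested, 1 rose and 1 fell, with a list median of 0.01. ZC3H18, a gene for a cap-binding complex partner that links to the exosome, had the rise (log2 fold change 0.28, SE 0.04, edgeR adjusted p = 3.90e-05), and EXOSC4, an exosome core subunit gene, the fall (log2 fold change -0.26, SE 0.08, edgeR adjusted p = 0.0223). Of 26 genes of double-stranded RNA binding, editing and sensing, 1 rose and 3 fell, again beside 12.8% of all genes, with a list median of -0.0033. DROSHA, the nuclear ribonuclease gene of microRNA processing, rose (log2 fold change 0.19, SE 0.05, edgeR adjusted p = 0.00766). PRKRA, an activator gene of the kinase PKR, fell (log2 fold change -0.31, SE 0.08, edgeR adjusted p = 0.0123), as did DDX58, which encodes the RNA sensor RIG-I (log2 fold change -0.22, SE 0.07, edgeR adjusted p = 0.0297), and MAVS, its mitochondrial adaptor (log2 fold change -0.15, SE 0.05, edgeR adjusted p = 0.0307).

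Promoter motifs were counted in the RefSeq windows of 241 members and 27305 genes, on both strands. CCAAT, the site of the factor NF-Y, was present in 38.2% of members and 39.7% of all genes. It was present in 9 of 11 members that rose, 4 of 16 that fell and 79 of 214 that were not called. Among genes with 1 window these counts were 8 of 10, 2 of 9 and 71 of 194, with 7999 of 22114 over all genes. CACGTG, the E-box bound by MYC and MAX, was present in 9.96% of members and 8.77% of all genes, in 2 that rose and 1 that fell. CCGGAAG, a form of the ETS site, was present in 14.5% against 12.2%, in none that rose and 2 that fell. TCACNCCAC was present in 2.07% against 1.39%, and among called members only in SLC25A30-AS1. TATAAA was present in 9.96% against 14.0%. No motif contains another, and a match describes letters in the window and not a bound site. The windows of members had a median GC of 62.0%, against 58.7% over all windows.

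Short words, first a fall pair and then a rise pair, were counted in the GENCODE v29 transcripts of 313 members. They were chosen with earlier results of these data known, so their counts of rises and falls are a description and no independent test. ACAGTCT or CAGTCTA was present in 87 members, of which 5 rose and 5 fell, and absent from 226, of which 7 rose and 16 fell. Over all 5430 matched genes that hold one of these words, 526 rose and 489 fell, against 736 and 415 of the 9396 that hold neither. TCGGAGA or CGGAGAA was present in 64 members, 4 up and 4 down, and absent from 249, 8 up and 17 down. Over all 3758 genes that hold one of these, 530 rose and 202 fell, against 732 and 702 of the 11068 that hold neither. Members that hold a word have longer transcripts. The median longest transcript was 2661 bases against 1530.5 for the first pair of words and 2375.5 against 1745 for the second. The words of a pair overlap each other in 6 letters.

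By type, RefSeq matched 326 members, 282 by symbol and 44 by a synonym. Of these, 317 are long noncoding RNA genes, 2 antisense RNA genes, 3 transcribed pseudogenes and 4 protein-coding genes. The 4 with a protein are MMP24-AS1 (MMP24OS), NCBP2-AS2 (NCBP2AS2), SPTY2D1-AS1 (MISFA) and TOPORS-AS1 (SMIM27). SPTY2D1-AS1 rose and TOPORS-AS1 fell, while MMP24-AS1 (log2 fold change -0.22, edgeR adjusted p = 0.505) and NCBP2-AS2 (log2 fold change -0.01, edgeR adjusted p = 0.962) did not pass.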

How the data were processed

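RNA sequencing libraries of T24 cells, 3 siNC and 3 siTRAIP, were grouped by their sample titles. Per the labels' protocols, TRIzol was used for the RNA and a stranded kit for the mRNA libraries. The main test used the raw counts that the authors deposited, which are whole numbers for each gene. The authors also deposited RPKM, which equal the count per exon length and library total within a relative difference of 1.25e-06. The tools named by the submitters' processing notes are Trimmomatic 0.36 and featureCounts of Subread 1.5.1, with GRCh38 as build. Sources used here name no aligner, annotation release or strand option. Of the deposited counts from 1 to 10, 70.2% were even, and p-values were therefore recomputed with counts halved.

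The members and lists were chosen with earlier results of these data known. Counts were fitted with edgeR 4.0.16 in R 4.3.3 (filterByExpr, TMM, quasi-likelihood F-test, robust=TRUE, Benjamini-Hochberg over 18685 genes, threshold 0.05). The SE is the log2 fold change over the square root of F. The difference of antisense and sense changes was the interaction in a fit of 12 columns per pair with the library as a block, adjusted over 5752 opposite-strand overlapping or named pairs. The common biological coefficient of variation was 5.73%. Both fits were tested on simulated data in which each gene was drawn independently. No simulated pair shared reads, so the effect of shared exons on the pair fit was not tested. Sequences came from RefSeq (GRCh38.p14) and GENCODE v29.

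Named genes are TRAIP; the 10 called members of each direction with the smallest adjusted p; the 5 members with the highest mean RPKM; called pair differences, of which there were none; the sense partners of these; called members of the cancer list and its 5 others with the highest count; and the rows next to the count minimum. Other genes were named after their values were seen. Alternatives covered DESeq2 1.42.0, limma 3.58.1 on RPKM, other scalings and filters, other count minimums, halved counts, the replicate number as a block, robust=FALSE and each library left out; 2 on shared exonic bases were added after seeing the data. No column of per-sample values was left out, and 26 rows whose name reads as a date stayed in the table under that name. 1 row next to the count minimum is not reported here.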

Additional observations from a re-analysis of the deposited data

How the results depend on the processing

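Members called numbered 37, of which 13 rose and 24 fell. With limma on log2(RPKM + 0.1) or log2(RPKM + 1) 5 members rose, and 42 sense genes were called, 9 of them up. With total counts and no TMM factor 7 members rose, and 18 sense genes rose and 55 fell; this scaling moved the median of all genes by -0.06. With any 1 library left out, 17 to 28 members were called, 5 to 10 up and 12 to 20 down, and 41 to 71 sense genes, 20 to 33 up and 21 to 39 down. Of members with no exonic base shared with an opposite-strand gene, 2 were called, 0 up and 2 down, and of those with at most 20% shared, 24 were called and 13 fell; these are smaller sets. Pair differences called numbered 0, and 3 with counts halved (2 with the antisense change above, 1 below), 1 with robust=FALSE (1 above) and 0 to 1 with a library left out (0 to 1 above); the cause was not tested.

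Whether the replicate numbers pair the libraries is not labelled. Correlations of same-numbered libraries' deviations were -0.01, -0.02 and 0.00, and those of other combinations ran from -0.03 to 0.04. Such values do not exclude a shared culture or batch by replicate number. The fit that blocked on that number called 30 members (11 up, 19 down) and 56 sense genes, with 0 pair differences.

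Changes of sign were seen among named genes that were not called. With limma on log2(RPKM + 0.1), with limma on log2(RPKM + 1) and without TMM scaling, the log2 fold changes were, in that order, -0.0593, -0.0590 and -0.0596 for ARMCX3-AS1, -0.0153, -0.0142 and -0.0163 for AFAP1-AS1, -0.00549, -0.00528 and -0.00333 for NIFK-AS1, -0.0171, -0.0156 and -0.0176 for RUSC1-AS1, -0.0341, -0.0335 and -0.0329 for ODF2, -0.0282, -0.0275 and -0.0275 for ARMCX3, -0.0355, -0.0331 and -0.0358 for AFAP1 and -0.0600, -0.0591 and -0.0578 for NIFK. ARMCX3-AS1 was also at -0.000877 with a filter of CPM 1 in 3 libraries, -0.00295 with counts halved and -0.00217 with no filter. With any 1 library left out, the log2 fold changes spanned 0, at -0.0110 to 0.0116 for ARMCX3-AS1, -0.00318 to 0.0987 for RUSC1-AS1, -0.0179 to 0.0788 for ODF2, -0.00540 to 0.0568 for AFAP1, -0.0477 to 0.0285 for NIFK, -0.164 to 0.670 for APCDD1L, -0.0895 to 0.0253 for GAS6, -0.114 to 0.00380 for TOPORS, -0.0480 to 0.0327 for ODF2-AS1 and -0.247 to 0.487 for IDI2. Of 974 values of named genes under alternatives, 834 kept direction and side of the threshold, 95 lost the call, 1 gained it and 44 changed sign. Depth limits precision: the SE of the log2 fold change was 0.22 for NDUFV2-AS1, at 0.732 to 1.52 CPM, and 0.04 for NOP14-AS1, at 135 to 176 CPM.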
